A study of Mus musculus with 18 samples.

Results

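The 10 genes described here belong to the bone morphogenetic protein (BMP) pathway and were chosen by name. They are the ligands *Bmp2*, *Bmp4* and *Bmp7*, the secreted antagonist *Grem1*, the type I receptors *Bmpr1a* and *Bmpr1b*, and the response genes *Id1*, *Id2*, *Id3* and *Smad6*. They are 10 of 31201 gene names in the count tables of the study's datasets, and all 10 are listed in both tables. The rule names genes and uses no measured value. On GRCm39 the ligand genes lie at chr2:133394079-133404816 on the plus strand (*Bmp2*), chr14:46620250-46636745 on the minus strand (*Bmp4*) and chr2:172709805-172782410 on the minus strand (*Bmp7*), and *Grem1* lies at chr2:113576509-113589000 on the minus strand. The receptor genes lie on the minus strand at chr14:34132687-34225379 (*Bmpr1a*) and chr3:141542897-141875323 (*Bmpr1b*). The response genes lie at chr2:152566218-152579544 on the plus strand (*Id1*), chr12:25143798-25147282 on the minus strand (*Id2*), chr4:135870808-135873066 on the plus strand (*Id3*) and chr9:63860341-63929793 on the minus strand (*Smad6*). All are protein-coding, and UMIs were counted per gene name.

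BMP ligands are secreted proteins that bind a complex of type I and type II serine/threonine kinase receptors. The activated type I receptor phosphorylates SMAD1, SMAD5 and SMAD9, which enter the nucleus with SMAD4 and raise transcription of targets such as the *Id* genes and *Smad6*. ID proteins bind E proteins and keep them from DNA, SMAD6 inhibits the pathway that induces it, and secreted antagonists such as Gremlin-1 and Noggin bind the ligands outside the cell. In the stomach the pathway is known for restraining proliferation in gastric units and for its part in parietal cell differentiation.

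Cells of the glandular stomach of wild-type male C57BL/6J mice, 10 weeks old, were measured by Quartz-Seq2, a plate-based single-cell RNA-seq method that counts unique molecular identifiers (UMIs). Dataset 1 holds cells of corpus and antrum gastric units from which dead cells were removed, by ToPro3 per the labels and by propidium iodide per the study's methods, and dataset 2 holds corpus cells that were positive for Hoechst33342 and negative for ToPro3. The labels name no other allele and no treatment of the mice. Each dataset has 2 pools, called tube1 and tube2 in dataset 1 and K and T in dataset 2, each derived from 3 mice and prepared by a different operator, so pool and operator cannot be told apart. Gastric unit layers had been peeled from the muscle layers, which limits the stromal cells that could be sampled.

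The cells that carry the authors' cluster names numbered 491 in dataset 1 (204 in tube1 and 287 in tube2) and 3993 in dataset 2 (1950 in K and 2043 in T). Their plates held 2551126 to 4773020 UMIs in dataset 1 and 10463555 to 12745419 UMIs in dataset 2. UMIs were summed per pool and cell type or cluster, and levels are given as UMIs per 1000000 of such a sum after TMM scaling (CPM), always in the order of the pools named above. Folds taken from UMI counts and limits from a count of 0 use UMI totals without TMM scaling. Calls rest on edgeR's quasi-likelihood test, at a Benjamini-Hochberg adjusted p below 0.05 over all genes of a fit. Since the clusters were made from the same counts, the p-values also reflect that choice. Well barcodes recur because every plate carries the same set, 145 of 296 on more than 1 plate in dataset 1 and all 384 in dataset 2, so a cell is known by its plate and barcode.

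The authors' cluster names were set against marker genes in dataset 2. Summed levels of each type's own markers, here and for other marker lists without TMM scaling, were 147800 CPM (mature pit), 106820 CPM (pre-pit), 14978 CPM in neck cells, 15295 CPM in chief cells and 39697 CPM in parietal cells. Isthmus cells were the least distinct, with 849 CPM of isthmus markers beside 37625 CPM of pit markers and 21308 CPM of neck markers. Pit markers also summed to 1479 CPM in neck, 1276 CPM in chief and 1044 CPM in parietal cells. Outside the major epithelial types, the dataset 1 cluster named lymphocytes (cluster 16) held 23565 CPM of macrophage markers with the T-cell genes at 0. The dataset 1 cluster named endocrine with number 14 held tuft and mast cell markers at 10240 and 16151 CPM. Both are called by their numbers here.

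The promoters of *Id2*, *Id3* and *Smad6* are shown because their response to SMAD proteins is what makes these genes readouts of the pathway. Each sequence is the 250 bases before the RefSeq start site on GRCm38.p6, 5′ to 3′ on the gene's strand, and capitals mark the motifs GGCGCC and GTCT or its reverse complement AGAC, searched on both strands.
Id2, chr12:25096093-25096342, minus strand: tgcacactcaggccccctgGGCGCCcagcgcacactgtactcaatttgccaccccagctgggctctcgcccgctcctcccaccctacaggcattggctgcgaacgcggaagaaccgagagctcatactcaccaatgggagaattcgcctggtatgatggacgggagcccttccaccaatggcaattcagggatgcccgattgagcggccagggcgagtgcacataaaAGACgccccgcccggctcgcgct
Id3, chr4:136143572-136143821, plus strand: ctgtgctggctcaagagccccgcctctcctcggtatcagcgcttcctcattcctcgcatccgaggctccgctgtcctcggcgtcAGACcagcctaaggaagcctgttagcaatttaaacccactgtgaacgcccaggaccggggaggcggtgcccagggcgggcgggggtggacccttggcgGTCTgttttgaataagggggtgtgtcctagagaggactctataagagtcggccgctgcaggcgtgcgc
Smad6, chr9:64022060-64022309, minus strand: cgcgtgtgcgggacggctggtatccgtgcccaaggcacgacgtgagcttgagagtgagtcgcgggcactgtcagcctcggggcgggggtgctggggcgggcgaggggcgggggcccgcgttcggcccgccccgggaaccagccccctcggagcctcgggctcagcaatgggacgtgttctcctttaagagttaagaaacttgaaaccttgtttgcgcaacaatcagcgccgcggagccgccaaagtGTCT
In *Id2*, GGCGCC lay 231 bases and AGAC 23 bases before the start. GTCT and AGAC lay 68 and 166 bases before the start of *Id3*, and GTCT lay 4 bases before that of *Smad6*. GGCGCC occurred in 9.59% of 32851 RefSeq promoter windows of the same length, and GTCT or AGAC in 82.9%, so the short motif alone separates few promoters. GGCGCC followed by GTCT at a spacing of 5 bases occurred in 0.07% of the windows and in none of the members' windows. A match describes the letters and does not show binding. Promoter entries were matched for 7 of the 10 members, and *Bmp2*, *Bmp7* and *Id1* had no entry.

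All 8 of the members that passed the filter on low counts in dataset 2 varied among its 6 epithelial types, where 87.6% of all 13894 genes tested did. *Bmp4* and *Grem1* did not pass it. In dataset 1, 7 of 8 tested members varied among 7 epithelial types, all but *Bmpr1a* (adjusted p = 0.519), against 77.7% of 10229 genes. Both shares lie near the background, so the detail below is in which types each gene was high.

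**Figure D1:**
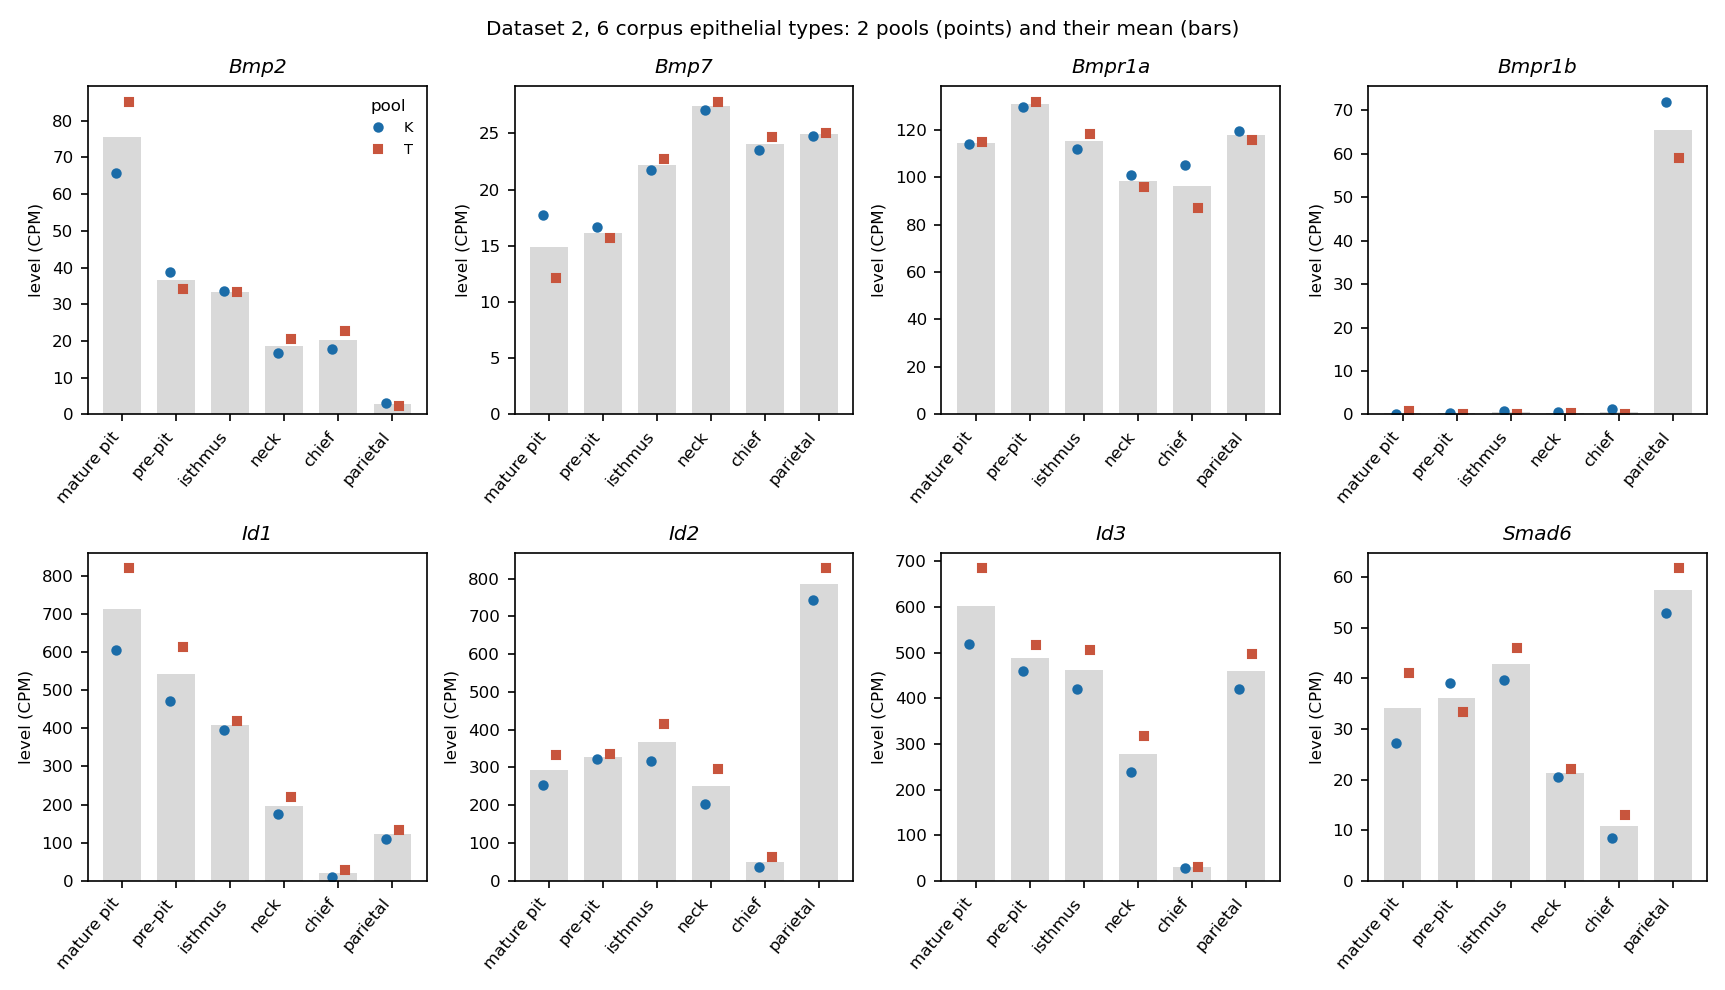
Level of 8 members in the 6 epithelial types of dataset 2, in CPM on a linear axis from 0, with each gene on its own scale. Bars are the mean of 2 pools, circles are pool K and squares pool T. *Bmpr1b* stands in parietal cells alone among the types, at 72.0 and 59.1 CPM, and *Id1*, *Id2* and *Id3* are lowest in chief cells.

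Among the ligands, *Bmp2* encodes a broadly used BMP. In the epithelial types of dataset 2 it was highest in mature pit cells and lowest in parietal cells. Its levels in K and T were 65.9 and 85.2 CPM in mature pit cells, 38.8 and 34.3 CPM in pre-pit cells and 33.6 and 33.3 CPM in isthmus cells. In chief cells they were 17.9 and 22.7 CPM, in neck cells 16.7 and 20.7 CPM, and in parietal cells 3.09 and 2.4 CPM. Only chief and neck cells overlapped between neighbours in this order. Mature pit cells exceeded pre-pit cells by 1.06 ± 0.15 (log2 fold change ± SE, 2 pools per type, adjusted p = 5.41e-04), and parietal cells lay below isthmus cells, at −3.59 ± 0.17 (adjusted p = 2.29e-10).

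Dataset 1 gave the same places to the top and bottom of the *Bmp2* order. Corpus mature pit cells held 116 and 110 CPM, corpus pre-pit cells 60.9 and 70.1 CPM, and the isthmus-like cells of cluster 4-15 held 31.2 and 32.0 CPM. Neck cells held 7.08 and 15.7 CPM and parietal cells 3.90 and 3.796 CPM. Corpus pre-pit cells exceeded isthmus-like cells by 1.03 ± 0.19 (adjusted p = 8.44e-04), whereas the same step in dataset 2 did not pass the test. In chief cells of dataset 1 *Bmp2* rested on 30 UMIs, at 28.7 and 77.4 CPM in a separate fit that includes chief cells and puts neck cells at 6.54 and 14.7 CPM, and lay 2.17 ± 0.43 above neck cells (adjusted p = 1.19e-03), while in dataset 2 chief and neck cells differed by 0.15 ± 0.20 (adjusted p = 0.595).

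*Bmp7*, a ligand of another BMP subgroup, did not follow *Bmp2*. In dataset 2 its levels spanned a narrow range, from 27.1 and 27.8 CPM in neck cells to 16.7 and 15.7 CPM in pre-pit cells and 17.7 and 12.1 CPM in mature pit cells. Between these lay parietal cells with 24.8 and 25.02 CPM, chief cells with 23.5 and 24.7 CPM and isthmus cells with 21.7 and 22.7 CPM. Only pre-pit and mature pit cells overlapped. The place of chief cells depends on the scaling: averaged over cells without TMM, chief cluster 10 held 16.1 *Bmp7* UMIs per 1000000 against 29.1 CPM from the scaled sum, and 13.3 *Bmp2* UMIs against 24.6 CPM. *Bmp7* was higher in neck than in isthmus cells (0.30 ± 0.10, adjusted p = 0.0175) and lower in pre-pit than in isthmus cells (−0.46 ± 0.12, adjusted p = 0.0125). Among the epithelial types of dataset 1 it was again highest in neck cells, at 55.2 and 35.2 CPM. Isthmus-like cells held 22.9 and 17.5 CPM, and only 4 UMIs were counted in corpus mature pit cells, 4 in antrum mature pit cells and 2 in antrum pre-pit cells.

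*Bmp4*, the ligand closest to BMP2 in sequence, was nearly absent from the epithelium and came from other cells. The epithelial types of dataset 2 held 7 *Bmp4* UMIs of 136884724 in 6 of 3826 cells, and none of these cells had a UMI of the collagen gene *Col1a1*. Those of dataset 1 held 0 of 16294257, which allows up to 0.184 UMIs per 1000000. In dataset 1 the smooth muscle-like cluster 11 had 51 *Bmp4* UMIs in 14 of 18 cells (274 CPM without scaling, exact 95% Poisson interval 204 to 360) and the stromal-like cluster 12 had 141 in 15 of 15 cells (720 CPM, 606 to 849). In dataset 2, cluster 15 held 18 *Bmp4* UMIs in 5 of 32 cells, all from pool K. These were the 5 cells with *Col1a1* UMIs, and none of the 26 cells with the tuft cell channel gene *Trpm5* had one. Intervals and floors cover counting error only, and in sums of cells fewer cells of a kind and less RNA per cell cannot be told apart.

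*Grem1*, which encodes the antagonist Gremlin-1, was at the floor everywhere. A single UMI was counted among 139611402 in dataset 2, in cluster 16 of pool T, and 0 among 19906729 in dataset 1, which allows up to 0.151 UMIs per 1000000 over all its clusters together. This limit rests mostly on epithelial UMIs. In the smooth muscle-like cluster 11 and the stromal-like cluster 12 of dataset 1 the count of 0 allows up to 16.1 and 15.3 UMIs per 1000000. No comparison of *Grem1* was possible at this depth.

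**Figure D2:**
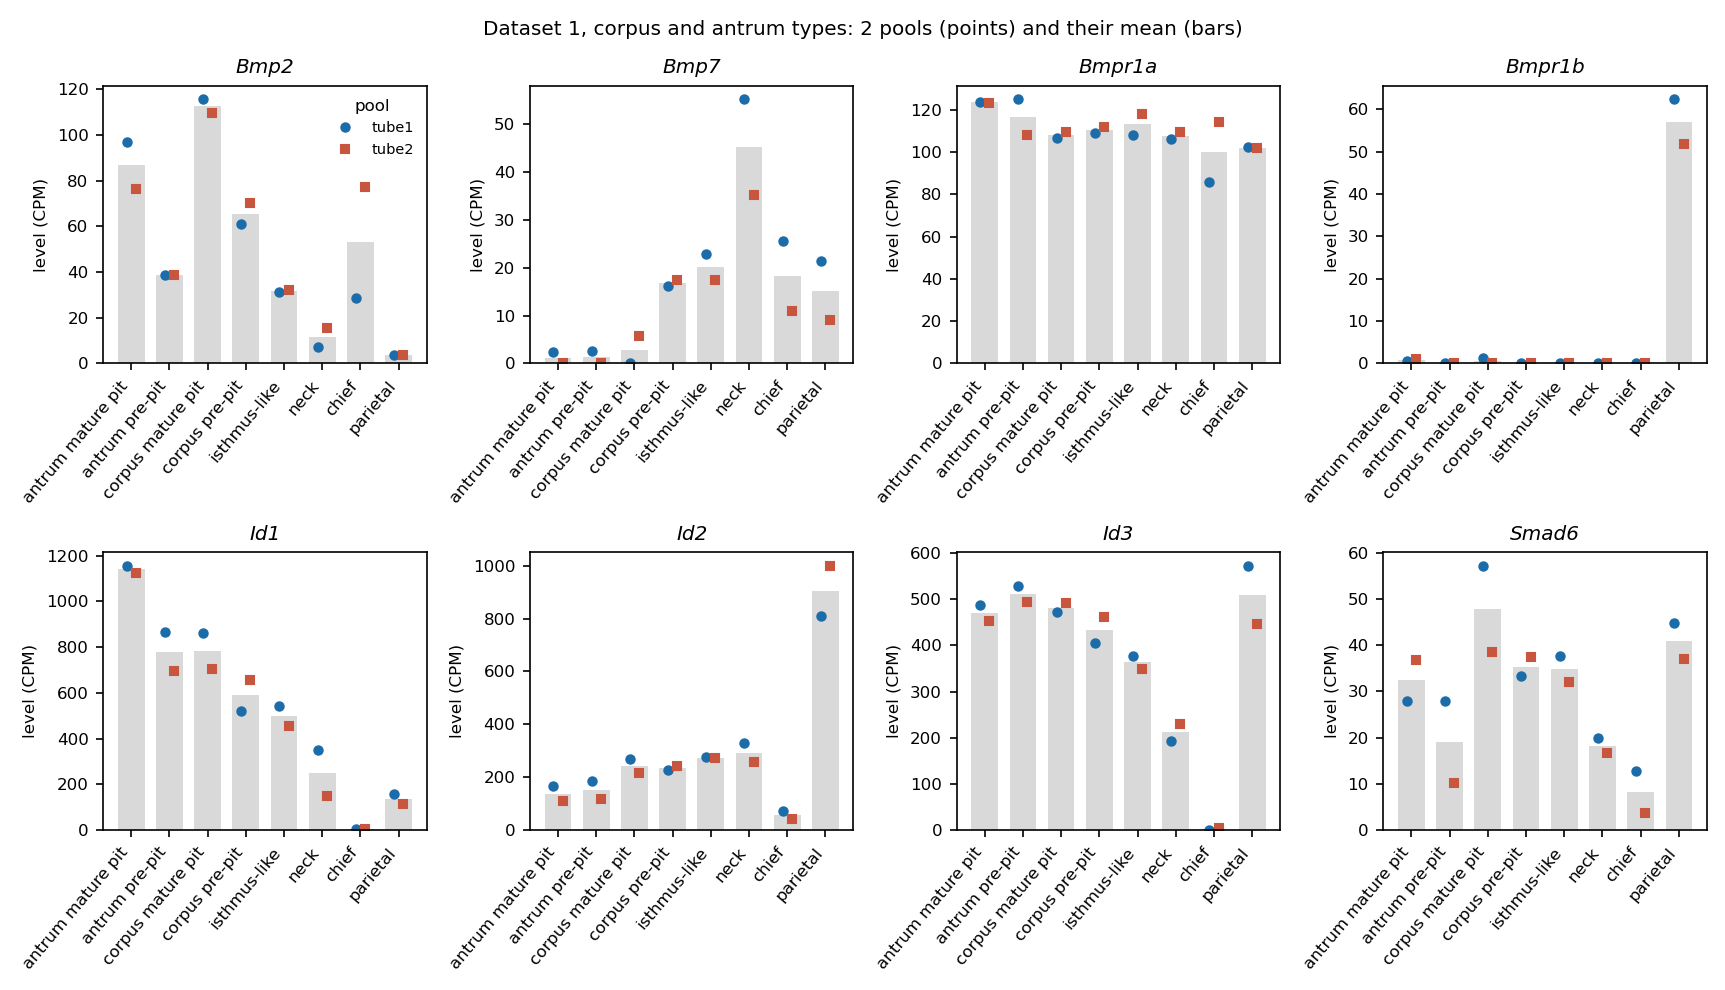
Level of 8 members in 8 epithelial types of dataset 1, in CPM on a linear axis from 0, with each gene on its own scale. Bars are the mean of 2 pools, circles are tube1 and squares tube2. *Bmp2* is highest in corpus mature pit cells, at 116 and 110 CPM, and *Bmpr1b* stands in parietal cells, at 62.4 and 51.7 CPM. Chief bars come from a separate fit with its own scaling.

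The type I receptors differed in how widely they were found. *Bmpr1a*, the receptor known to be needed for BMP signalling in many epithelia, was present in every epithelial type of dataset 2, from 130 and 132 CPM in pre-pit cells to 105 and 87.0 CPM in chief cells. Parietal, isthmus and mature pit cells overlapped, as did neck and chief cells. Averaged over cells without TMM, however, chief cluster 10 held 65.5 UMIs per 1000000, below the 4 neck clusters at 94.8 to 137, against 116 CPM from the scaled sum. *Bmpr1a* was lower in neck than in isthmus cells by a small amount (−0.23 ± 0.08, adjusted p = 0.0337).

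*Bmpr1b* was close to specific to parietal cells among the epithelial types in both datasets. Parietal cells of dataset 2 held 2026 *Bmpr1b* UMIs, at 72.0 and 59.1 CPM, and no other epithelial type exceeded 1.12 CPM in a pool. Isthmus cells had 27 UMIs, at 0.678 and 0.189 CPM, and neck cells had 13. The difference between parietal and isthmus cells was 7.29 ± 0.32 (adjusted p = 1.06e-10), and 6.42 in pool K alone. In dataset 1 parietal cells had 173 UMIs, at 62.4 and 51.7 CPM, against 0 in isthmus-like cells, at least 50.3-fold higher against a floor of 3 UMIs over both pools. Outside the epithelium, the smooth muscle-like cluster 11 of dataset 1 held 60.9 and 78.2 CPM from 16 UMIs.

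Counted per cell, *Bmpr1b* was detected in 38.8% of dataset 2 parietal cells after each cell was thinned to 10000 UMIs (701 cells, 79.8% without thinning). The share was 43.9% in K and 32.1% in T. Isthmus cells showed 0.625% and neck cells 0.162% at the same depth, with median totals of 47647 UMIs in parietal, 37426 in isthmus and 22530 in neck cells. In dataset 1 the thinned share was 43.9% of 57 parietal cells and 0 in the other types. The parietal share pools 17 cells of tube1 and 40 of tube2 and leaves out the spread between pools.

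Among the targets, *Id1* encodes a dominant-negative partner of E proteins. In the epithelial types of dataset 2 it was highest in mature pit cells and lowest in chief cells. Its levels in dataset 2 were 606 and 820 CPM in mature pit cells, 471 and 614 CPM in pre-pit cells, 395 and 420 CPM in isthmus cells and 174 and 221 CPM in neck cells. Parietal cells held 111 and 135 CPM, and chief cells held 10.1 and 29.3 CPM. Mature pit and pre-pit cells overlapped, and the other neighbours in this order did not. Neck cells lay below isthmus cells, at −1.05 ± 0.21 (adjusted p = 1.09e-03), chief below neck cells, at −3.23 ± 0.30 (adjusted p = 1.50e-06; −4.09 in pool K alone and −2.91 in pool T alone), and parietal below isthmus cells, at −1.73 ± 0.22 (adjusted p = 6.62e-06).

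*Id3*, another *Id* gene, shared the drop in chief cells but, after TMM scaling, not the low level in parietal cells. Its levels were 518 and 685 CPM in mature pit cells. Pre-pit cells held 460 and 517 CPM, isthmus cells 420 and 505 CPM and parietal cells 420 and 497 CPM, and these 3 types overlapped. Neck cells held 239 and 317 CPM and chief cells 28.0 and 30.8 CPM. The differences were −0.73 ± 0.15 for neck against isthmus cells (adjusted p = 1.39e-03), −3.23 ± 0.20 for chief against neck cells (adjusted p = 4.44e-08) and −0.01 ± 0.15 for parietal against isthmus cells (adjusted p = 0.946).

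*Id2*, whose protein also binds E proteins, was highest in parietal cells, where it reached 743 and 827 CPM. Isthmus cells held 317 and 415 CPM, pre-pit cells 323 and 335 CPM, mature pit cells 253 and 334 CPM and neck cells 203 and 297 CPM, a chain of overlapping neighbours. Chief cells stood apart at 36.3 and 62.01 CPM. Parietal cells exceeded isthmus cells by 1.10 ± 0.20 (adjusted p = 1.88e-04), and chief cells lay below neck cells, at −2.31 ± 0.24 (adjusted p = 5.04e-06).

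Among the epithelial types of dataset 2, *Smad6*, the inhibitory Smad induced by the pathway, was highest in parietal cells and lowest in chief cells, as *Id2* was. Parietal cells held 52.9 and 61.7 CPM, isthmus cells 39.6 and 45.9 CPM, pre-pit cells 39.0 and 33.4 CPM and mature pit cells 27.3 and 41.0 CPM. Neck cells held 20.5 and 22.0 CPM and chief cells 8.39 and 13.1 CPM. It was higher in parietal than in isthmus cells (0.42 ± 0.13, adjusted p = 8.92e-03), lower in neck than in isthmus cells (−1.01 ± 0.13, adjusted p = 3.52e-05) and lower in chief than in neck cells (−0.93 ± 0.25, adjusted p = 9.35e-03). Among the epithelial types of dataset 1 *Smad6* was instead highest in corpus mature pit cells, at 57.2 and 38.5 CPM, which overlapped parietal cells at 44.8 and 37.0 CPM. There neck cells lay below isthmus-like cells, at −0.94 ± 0.31 (adjusted p = 0.0287, but 0.171 by DESeq2), while parietal against isthmus-like cells (0.21 ± 0.24, adjusted p = 0.454) and chief against neck cells (−0.96 ± 0.68, adjusted p = 0.374) did not pass.

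Counted over the members, the steps along the gastric unit differed in how many genes passed. From isthmus to pre-pit cells only *Bmp7* of 8 members was called, against 27.8% of all genes, and from pre-pit to mature pit cells only *Bmp2*, against 10.4%. With the pool as a block, *Id1* passed in both steps, as higher in pre-pit than in isthmus cells (adjusted p = 0.0115) and in mature pit than in pre-pit cells (0.0295), and *Id3* passed in the second (0.0180). Without the block *Id1* was at 0.41 ± 0.21 and 0.40 ± 0.21 and *Id3* at 0.30 ± 0.16. From isthmus to neck cells 7 of 8 members were called, 6 of them lower, where 50.7% of all genes were called and 24.3% were lower. Without neck cluster 12 the count was 4, and *Bmp7*, *Bmpr1a* and *Id2* no longer passed (adjusted p = 0.0946, 0.0516 and 0.0817). From neck to chief cells 4 of 8 were called, *Id1*, *Id2*, *Id3* and *Smad6*, all lower, against 38.6% of all genes called and 19.9% lower. From isthmus to parietal cells 5 of 8 were called, *Bmpr1b*, *Id2* and *Smad6* higher and *Bmp2* and *Id1* lower, against 71.8% of all genes, 35.2% higher and 36.7% lower. The direction of *Smad6* there depends on the scaling, as given above.

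The transcripts of cell dissociation, 14 immediate early and heat shock genes, differed between the types. Of them 14 were lower in pre-pit than in isthmus cells, where 15.5% of all genes were. In parietal against isthmus cells 8 were lower (36.7% of all genes), and in neck against isthmus cells 1 was higher (26.4%). In chief against neck cells 1 was lower (19.9%). In dataset 1, 12 were lower in corpus pre-pit (10.8%) and 11 higher in neck (13.1%) than in isthmus-like cells. Parietal against isthmus-like cells gave 7 lower (32%) and 1 higher (28.3%). Chief against neck cells there gave 3 lower (9.08%) and 2 higher (9.5%). Their summed TMM-scaled level was 5278 and 13440 CPM in neck cells, 6408 and 11077 CPM in chief cells, 4723 and 7881 CPM in isthmus cells and 3429 and 3568 CPM in parietal cells. Mature pit cells held 1860 and 2031 CPM and pre-pit cells 1239 and 1816 CPM. All 14 genes were present in each type, and neck, chief and isthmus cells overlapped. Their part in the differences of the *Id* genes was not tested.

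**Figure D3:**
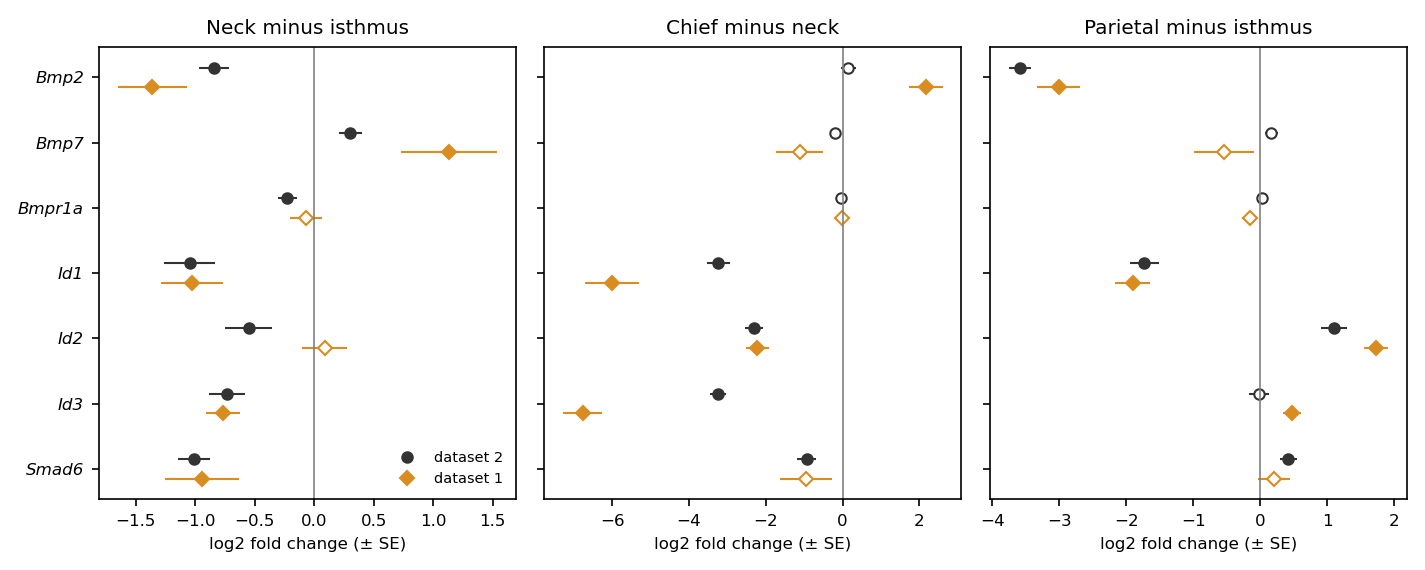
Log2 fold change ± SE for 7 members in neck against isthmus, chief against neck and parietal against isthmus cells, with dataset 2 as dark circles and dataset 1 as orange diamonds. Filled symbols have an adjusted p under 0.05 by edgeR's quasi-likelihood test. *Id1* and *Id3* lie furthest below 0 in chief against neck cells, at −3.23 in dataset 2 for both.

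Dataset 1 allowed the same differences in a smaller set of cells. From isthmus-like to neck cells 5 of 8 members were called, against 29.3% of all genes, with *Id1* at −1.03 ± 0.26 (adjusted p = 5.50e-03) and *Id3* at −0.76 ± 0.15 (adjusted p = 5.95e-04) lower and *Bmp7* at 1.13 ± 0.40 (adjusted p = 0.0424, but 0.244 by DESeq2) higher. *Id2* was at 0.09 ± 0.19 (adjusted p = 0.772). From isthmus-like to parietal cells 5 of 8 were called, against 60.3%, with *Id2* at 1.73 ± 0.18 (adjusted p = 1.51e-07) and *Id3* at 0.48 ± 0.14 (adjusted p = 5.05e-03) higher and *Id1* at −1.90 ± 0.26 (adjusted p = 4.93e-06) lower. *Id2* in dataset 1 parietal cells reached 811 and 1000 CPM, above every other type, which held at most 328 CPM in a pool.

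The 21 chief cells of dataset 1 held almost no *Id1* or *Id3*. *Id1* had 2 UMIs in chief cells against 409 in neck cells, 115-fold lower per UMI total without TMM scaling (counting interval 31.6 to 951), and *Id3* had 1 against 386, 217-fold lower (38.6 to 8577). The scaled log2 fold changes were smaller in size, −6.00 ± 0.71 for *Id1* (adjusted p = 2.68e-06) and −6.77 ± 0.51 for *Id3* (adjusted p = 5.97e-09), and depend on the prior count at so few UMIs. Without tube1 they were −4.69 and −5.31, with no test. In the same fit, which includes chief cells, *Id2* was at 73.3 and 40.6 CPM in chief cells and 304 and 240 CPM in neck cells. In this comparison 4 of 8 members were called, *Bmp2* higher and *Id1*, *Id2* and *Id3* lower, against 18.6% of 10163 genes.

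*Id1* was also found in fewer chief cells than cells of the other types of dataset 2. At 10000 UMIs per cell it was found in 96.6% of mature pit, 92.8% of pre-pit, 91.1% of isthmus, 61.3% of neck and 46.1% of parietal cells. In chief cells the share was 11.1%. These shares take the cells of K and T together and leave out the spread between pools. Without thinning the shares were 23.3% in chief and 74.3% in neck cells, at median totals of 34845 and 22530 UMIs. *Id3* was found in 99.1% of mature pit, 87.7% of parietal and 15.0% of chief cells at the thinned depth.

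Antrum and corpus pit cells were compared within dataset 1. *Id1* was at 1157 and 1124 CPM in antrum mature pit cells and 861 and 704 CPM in corpus mature pit cells, and at 865 and 697 CPM against 523 and 659 CPM in the pre-pit cells, a difference of 0.48 ± 0.17 over both stages that did not pass (adjusted p = 0.101). *Bmp2* and *Id2* were the called members, 2 of 8 against 9.24% of all genes. *Bmp2* was lower in the antrum, at 97.0 and 76.6 CPM in mature and 38.6 and 38.7 CPM in pre-pit cells (−0.55 ± 0.15, adjusted p = 0.01999, but 0.257 by DESeq2). *Id2* was lower at 165 and 110 CPM in antrum mature pit cells against 270 and 215 CPM in the corpus (−0.70 ± 0.15, adjusted p = 4.11e-03).

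The step from pre-pit to mature pit cells was also compared between antrum and corpus. This interaction was called for 0 of 8 members and for 0.0293% of all genes (3 genes by edgeR, 620 at an unadjusted p under 0.05, and 11 by DESeq2). From corpus pre-pit to corpus mature pit cells *Bmp2* (0.80 ± 0.18, adjusted p = 6.81e-03, but 0.0999 by DESeq2) and *Bmp7* (−2.58 ± 0.82, adjusted p = 0.0449) were called, 2 of 8 against 12.9% of all genes, the latter on 4 UMIs in mature pit cells and lost with DESeq2 (adjusted p = 0.0714), with −3.34 in tube1 alone and −1.38 in tube2 alone. From isthmus-like to corpus pre-pit cells 1 of 8 was called, *Bmp2*, against 20.4%.

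**Figure D4:**
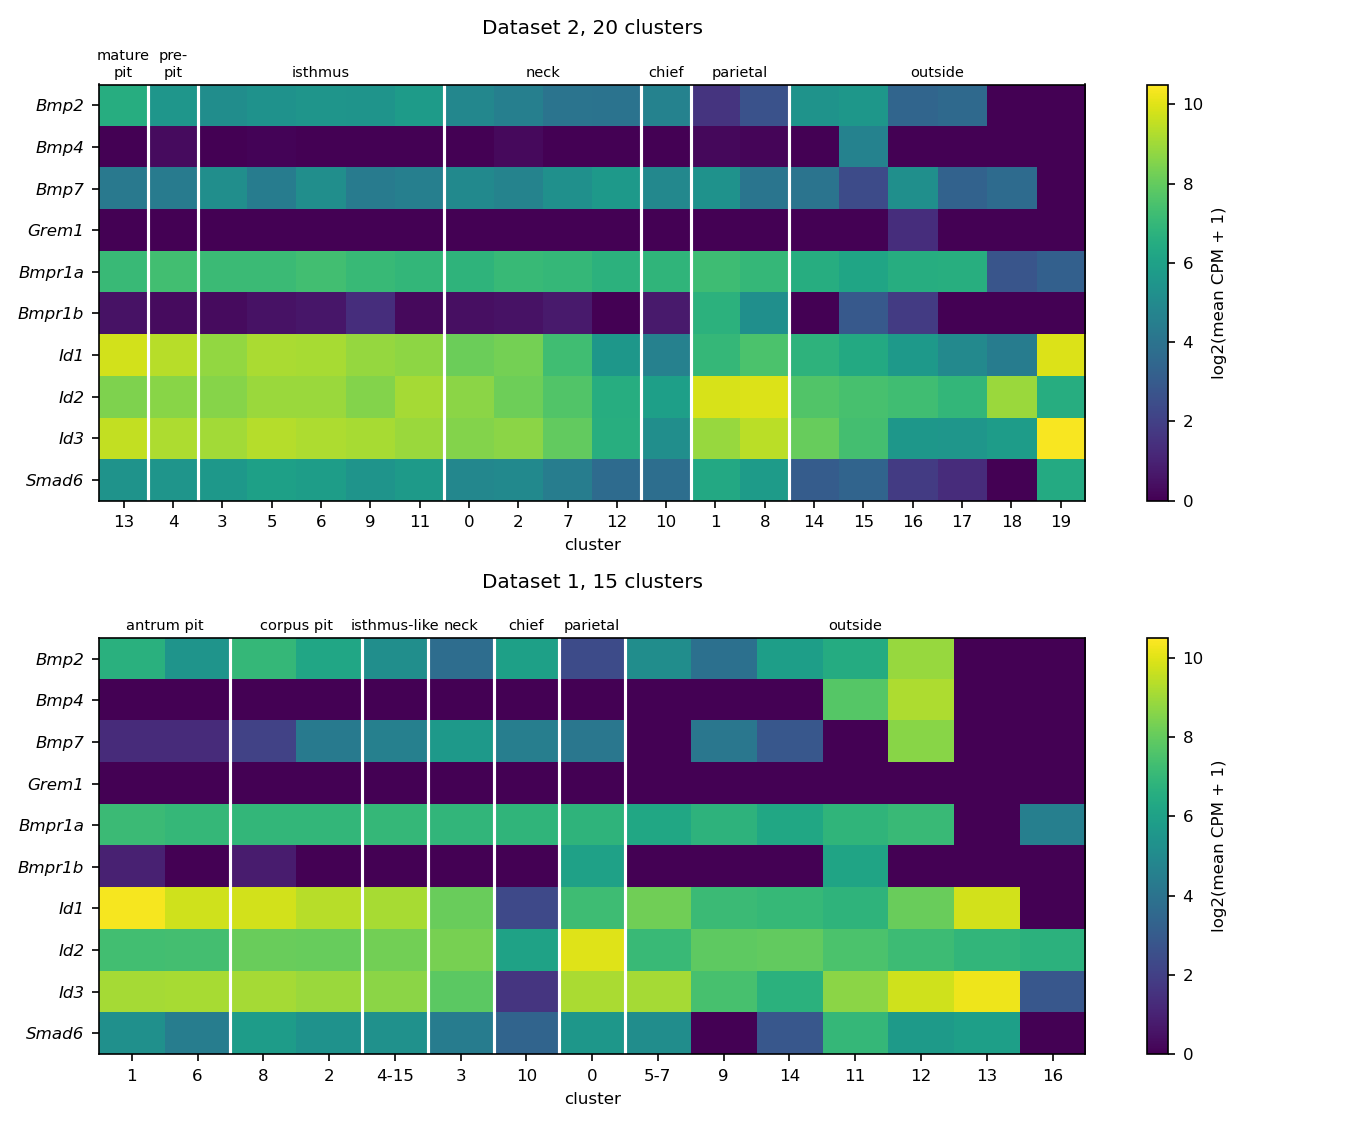
Mean level of the 10 members in the 20 clusters of dataset 2 and the 15 clusters of dataset 1, as colour on a log2(mean CPM + 1) scale, to be read along each gene's own row. *Bmp4* is coloured in dataset 1 clusters 11 and 12 and dataset 2 cluster 15. *Bmpr1b* is most strongly coloured in the parietal clusters and in dataset 1 cluster 11, while *Grem1* is near 0 throughout.

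Within the neck cells of dataset 2 the *Id* genes differed between clusters. *Id1* was at 266 and 296 CPM in cluster 0, 274 and 361 CPM in cluster 2, 145 and 162 CPM in cluster 7 and 44.3 and 48.3 CPM in cluster 12. *Id3* in the same order was at 311 and 435, 364 and 462, 244 and 264, and 113 and 75.7 CPM. *Id2* was at 353 and 454, 278 and 295, 173 and 221, and 99.5 and 83.1 CPM. All 3 genes were lowest in cluster 12, and *Id1* in chief cluster 10 was lower still, at 12.1 and 35.6 CPM. *Bmp7* went the other way, from 28.9 and 33.2 CPM in cluster 0 to 46.6 and 54.2 CPM in cluster 12. Over the 4 neck clusters 6 of 8 members were called, against 17.1% of 15295 genes (*Id1* adjusted p = 2.66e-11, *Id2* 4.51e-09, *Id3* 6.21e-08, *Bmp7* 4.42e-03, *Smad6* 5.68e-03, *Bmp2* 0.0168). All 14 dissociation genes were also called among these clusters. Their summed level was 22104 and 25619 CPM in cluster 0 but 1620 and 2382 CPM in cluster 2, 1236 and 1672 CPM in cluster 7 and 2456 and 4441 CPM in cluster 12, and their part in the differences was not tested.

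Without a pool term fewer members were called among the 5 isthmus clusters. Only *Bmp7* (adjusted p = 1.83e-05) and *Id2* (adjusted p = 0.0454) of 8 members were called, against 40.2% of all genes. *Bmp7* was at 33.0 and 38.2 CPM in cluster 3 and 33.7 and 37.6 CPM in cluster 6, against 17.6 to 22.4 CPM in a pool in clusters 5, 9 and 11. *Id2* was highest in cluster 11, at 479 and 620 CPM. Of the 14 dissociation genes, 12 were also called among these clusters. Their summed level was 16098 and 14135 CPM in cluster 11, against 3661 to 10475 CPM in a pool in the other isthmus clusters. Their part in the differences was not tested. With the pool as a block 6 members were called, adding *Bmp2*, *Bmpr1a*, *Id1* and *Smad6*. With no filter on low counts 5 were called, and without the cells above the 95th UMI percentile only 1. The share of all genes called under these settings is not given here, so these counts have no background beside them.

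The parietal clusters 1 and 8 differed in 5 of 8 members, against 19.8% of all genes. Cluster 8 held less *Bmpr1b*, 30.2 and 43.4 CPM against 120 and 94.9 CPM in cluster 1 (−1.55 ± 0.24, adjusted p = 1.65e-05, but 0.221 by DESeq2), and less *Bmp7*, 12.03 and 19.9 CPM against 40.4 and 38.9 CPM (−1.31 ± 0.18, adjusted p = 1.00e-06). *Smad6* was also lower, at 50.3 and 56.3 CPM against 72.0 and 89.7 CPM. *Id1* was higher in cluster 8, at 173 and 189 CPM against 112 and 138 CPM (0.54 ± 0.18, adjusted p = 0.0330), and *Bmp2* was higher, at 6.70 and 3.94 CPM against 2.04 and 1.96 CPM. The median share of mitochondrial UMIs was 22.8% in cluster 1 and 12.6% in cluster 8, and 9 of 14 dissociation genes were higher in cluster 8 (median log2 fold change 1.06 against −5.08e-04 for all genes). The part of either in these differences was not tested. *Id3* was called with the pool as a block (adjusted p = 8.16e-04) and not without it (0.0532). Without cluster 8 *Bmp7* in parietal cells passed as higher than in isthmus cells (0.57, adjusted p = 1.98e-04).

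Clusters outside the major epithelial types were set against the mean of the 14 epithelial clusters. They were named from fixed markers where these allowed it. Cluster 14 (53 cells) was enterochromaffin-like (ECL) with *Ghrl* also high, and cluster 15 (32 cells) was tuft-like, with stromal markers in pool K alone. Cluster 16 (31 cells) was somatostatin D-cell-like and cluster 17 (29 cells) ghrelin X/A-cell-like. Cluster 18 (13 cells) was macrophage-like and cluster 19 (9 cells) endothelial-like. The median of all genes in these contrasts lay at −0.127, −0.143, −0.194, −0.224, −1.01 and −1.46 in clusters 14 to 19, and by relative log expression (RLE) scaling at 0.0729, 0.00898, 0.133, 0.0352, −0.713 and −1.09, so changes there are to be read against that median. By DESeq2 it moved by 0.322 in cluster 14 to 1.90 in cluster 19.

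The clusters with endocrine markers (14, 16 and 17) held less *Id1* and *Id3* than the epithelial mean. Low levels were not particular to them. Tuft-like cluster 15 held *Id1* at 66.6 and 96.2 CPM and *Id3* at 109 and 220 CPM. Macrophage-like cluster 18 held *Id1* at 11.7 and 28.8 CPM from 3 UMIs and *Id3* at 93.9 and 14.4 CPM from 9 UMIs. In the somatostatin-like cluster 16 *Id1* was at 40.1 and 58.5 CPM (−2.33 ± 0.33, adjusted p = 3.51e-07) and *Id3* at 15.0 and 77.9 CPM (−2.82 ± 0.36, adjusted p = 2.91e-08, and −4.46 in pool K alone). In the ghrelin-like cluster 17 *Id1* was at 21.0 and 38.5 CPM (−3.12 ± 0.35, adjusted p = 1.54e-09) and *Id3* at 38.9 and 51.4 CPM (−3.05 ± 0.34, adjusted p = 1.66e-09). In the ECL-like cluster 14 *Id1* was at 119 and 98.3 CPM (−1.25 ± 0.21, adjusted p = 3.06e-06) and *Id3* at 214 and 311 CPM (−0.49 ± 0.19, adjusted p = 0.0321), the latter not called with RLE scaling (adjusted p = 0.233) or DESeq2 (0.244). *Smad6*, counted at 0 and 14.5 CPM in cluster 14, was at −2.21 ± 0.45 there (adjusted p = 1.01e-04, −5.73 in pool K alone and −1.39 in pool T alone), and it had 1 UMI in each of clusters 16 and 17.

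In all, 7 of 8 members were called in cluster 14 (46.4% of all genes), 7 in cluster 15 (27.9%), 5 in cluster 16 (36.7%), 6 in cluster 17 (39.6%), 3 in cluster 18 (20.4%) and 4 in cluster 19 (16.9%). RLE scaling left 4 members in cluster 14 and dropped *Bmpr1a* in cluster 16 (adjusted p = 0.494). With the pool as a block *Bmpr1b* was called in cluster 15 (adjusted p = 0.0485, from 5 UMIs) and *Smad6* in cluster 18 (0.0317, from 0 UMIs). *Bmp2* in cluster 14 was at 68.5 CPM in K and 14.5 CPM in T (0.70 ± 0.29, adjusted p = 0.0423) and lay at −0.73 without pool K, a value with no test. The dissociation genes summed to 10334 and 14586 CPM in cluster 14, 19420 and 19506 CPM in cluster 16 and 25874 and 26871 CPM in cluster 17, and their part in these values was not tested.

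In dataset 2 endothelial-like cells held more *Id1* and *Id3* than the epithelial mean. Mature pit cluster 13 of dataset 2 overlapped them in *Id1*, at 725 and 1010.5 CPM. In the 9 cells of cluster 19 *Id1* was at 1066 and 893 CPM from 105 UMIs (1.92 ± 0.26, adjusted p = 2.76e-07) and *Id3* at 1379 and 1324 CPM from 146 UMIs (1.86 ± 0.25, adjusted p = 3.43e-07). *Bmp2*, *Bmp4* and *Bmp7* had no UMI there, which allows up to 43.7 UMIs per 1000000. In the endothelial-like cluster 13 of dataset 1 *Id1* was at 748 and 1025 CPM and *Id3* at 1289 and 1124 CPM, again with no UMI of the 3 ligands, which allows up to 20.7 UMIs per 1000000. Antrum mature pit cluster 1 of dataset 1 held more *Id1*, at 1341 and 1276 CPM. Stromal-like cluster 12 of dataset 1 held all 3 ligands, with *Bmp2* at 605 and 339 CPM, *Bmp4* at 496 and 692 CPM and *Bmp7* at 532 and 249 CPM.

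The other genes of the pathway came from lists of secreted antagonists, receptors, SMADs and response genes. Of 7 antagonists tested, 5 were called in parietal against isthmus cells, 2 higher and 3 lower, a share near the 71.8% of all genes. *Nog*, which encodes Noggin, had 102 UMIs in parietal and 0 in isthmus cells, at least 52.15-fold higher against a floor of 3 UMIs over both pools. It was highest in parietal cluster 1, which held 99 of these UMIs, at 6.88 ± 2.05 CPM (mean ± SD, 2 pools). Parietal cluster 8 held 3, at 0.286 ± 0.126 CPM, so the parietal value rests on cluster 1. *Bambi*, a pseudoreceptor, was lower at −3.05, and *Nbl1*, which encodes a secreted antagonist, at −2.69 ± 0.34.

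Antagonists differed in the cells that held them. *Sostdc1*, which encodes a secreted BMP and Wnt antagonist, had 1836 of its 1868 UMIs in chief cluster 10 (504 ± 16.6 CPM), 9.54 ± 0.19 above neck cells in dataset 2. In dataset 1 it had 162 UMIs in chief and 0 in neck cells, at least 96.2-fold higher. *Fst*, which encodes follistatin, had 777 of 791 UMIs in ECL-like cluster 14 (632 ± 227 CPM). *Twsg1*, a modulator of BMP binding, and *Nbl1* were also highest there, at 301 ± 55.9 and 175 ± 1.52 CPM, and *Bambi* was highest in cluster 17 at 199 ± 58.2 CPM.

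**Figure D5:**
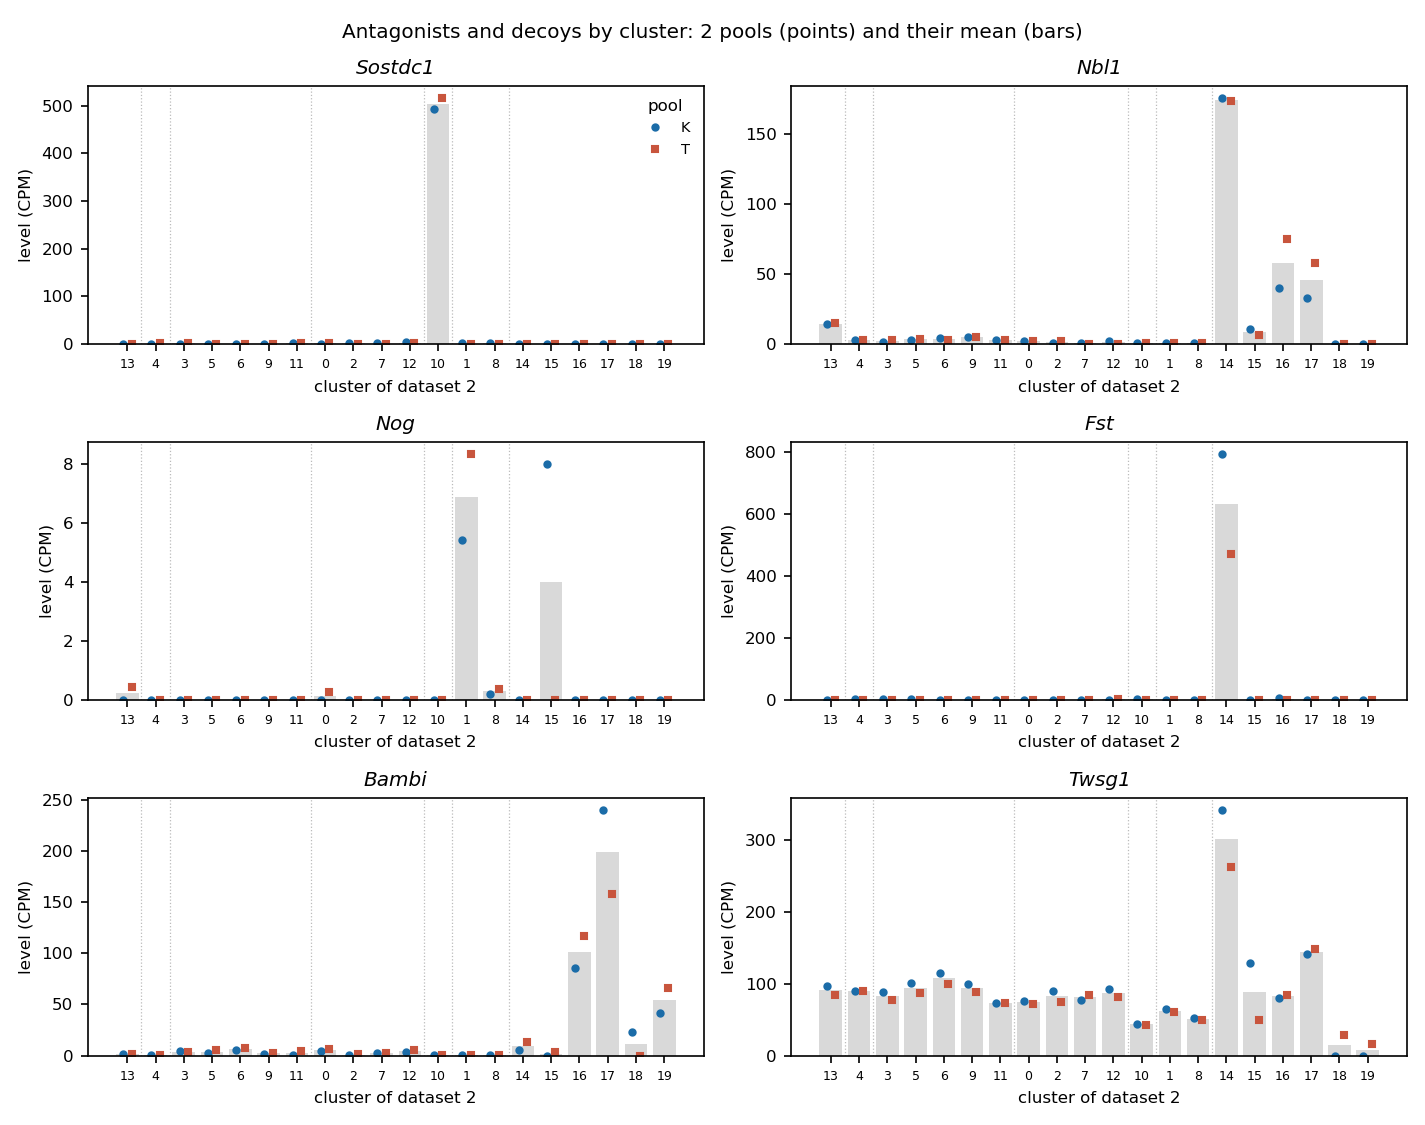
Level of the antagonists *Sostdc1*, *Nbl1*, *Nog*, *Fst*, *Bambi* and *Twsg1* in the 20 clusters of dataset 2, in CPM on a linear axis from 0, each gene on its own scale. Bars are the mean of pools K (circles) and T (squares), and the highest bars are cluster 10 for *Sostdc1* (504 CPM), cluster 1 for *Nog* (6.88 CPM) and cluster 14 for *Fst* (632 CPM).

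Of 8 receptors tested in parietal against isthmus cells, 6 were called, near the 71.8% of all genes, and 5 were higher, where 35.2% of all genes were, among them the type II receptors *Bmpr2* (1.90 ± 0.09) and *Acvr2a* (2.09 ± 0.12), while the co-receptor *Rgma* was lower (−3.27 ± 0.35). Of 10 SMADs, 8 were called, 4 in each direction, also near that background, with *Smad9*, a receptor-activated SMAD, at 3.01 ± 0.20, *Smad7*, an inhibitory SMAD, at 1.00 ± 0.14 and *Smad4*, the shared partner SMAD, at −0.93 ± 0.09. *Smad9* was at 3.71 and *Bmpr2* at 1.98 in dataset 1.

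The wider response list holds the 4 response members and 8 further genes. In chief against neck cells 10 of 12 response genes were called, 1 higher and 9 lower, against 38.6% of all genes, with a median log2 fold change of −2.73 where all genes had −0.0677. *Id4*, the fourth *Id* gene, was at −5.03 ± 0.33. In neck against isthmus cells 9 of 12 were called, 7 lower and 2 higher, against 50.7% of all genes, with a median of −0.64 against 0.0561, and *Id4* was higher at 1.39 ± 0.16. In parietal against isthmus cells 11 of 12 were called, 6 higher and 5 lower, against 71.8% of all genes, with a median of 0.20 against −0.0468, and *Id4* was lower at −3.37 ± 0.21. In pre-pit against isthmus cells 2 of 12 were called, both lower, against 27.8%, with a median of −0.34 against 0.00219. Of the 3 genes of E proteins, the partners of ID proteins, 2 were called in chief against neck cells, in opposite directions, against 38.6% of all genes. *Tcf12* was higher (0.68 ± 0.11), *Tcf3* was lower (−1.06 ± 0.22) and *Tcf4* was at 0.08 ± 0.16.

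Likeness to each member was measured as the correlation of log2(CPM + 1) over the 20 clusters of dataset 2, among 14229 genes, with the value over the 15 clusters of dataset 1 beside it. The clusters share libraries and cell types, so the values are descriptions. *Bmpr1b* was most like *Plin4* (0.972, and 0.974 in dataset 1), *Pld6* (0.971 and 0.484) and *Rufy4* (0.962 and 0.969). *Id1* was most like *Septin7* (0.953 and 0.551), *Id3* (0.937 and 0.907) and *Gm13056* (0.919 and 0.579). *Bmp2* was most like *Tmem54* (0.955 and 0.430), *Sh3gl2* (0.945 and 0.411) and *Tgfa* (0.936 and 0.346), and *Bmp7* most like *Slc19a2* (0.910 and 0.227), *Cutc* (0.904 and 0.491) and *Tlcd4* (0.901 and 0.322).

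For the remaining members the dataset 1 values also ranged widely. *Bmpr1a* was most like *Ap1m2* (0.989 and 0.420), *Lpin3* (0.987 and 0.0936) and *Rars2* (0.987 and 0.303). It had 1 UMI in each of the small clusters 18 and 19 of dataset 2, which weigh heavily in these values. The other clusters held 70.8 to 159 CPM (mean of the pools). *Id2* was most like *Zmiz1* (0.891 and 0.213), *Bri3bp* (0.885 and 0.411) and *Acadl* (0.862 and 0.569), and *Id3* most like *Id1*, *Septin7* (0.929 and 0.676) and *Shoc2* (0.911 and 0.534). *Smad6* was most like *Fbxl8* (0.934 and 0.0676), *Fzd4* (0.934 and 0.712) and *Eif4ebp2* (0.931 and 0.449). *Bmp4*, with 18 of its 25 dataset 2 UMIs in cluster 15, was most like *Fcna* (0.997) and *Inhbc* (0.996), which were both at −0.104 in dataset 1, and *Gnb3*. Among the members, *Id3* and *Smad6* were at 0.872 and 0.664, *Id1* and *Smad6* at 0.832 and 0.634, and *Bmp2* and *Id1* at 0.338 and 0.355.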

How the data were processed

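Single cells of mouse gastric units were measured by Quartz-Seq2 on 384-well plates, 6 in dataset 1 and 12 in dataset 2. The deposited UMI counts per gene name came from the authors' pipeline, in which reads aligned by STAR to GRCm39 (gene models Gencode M27) were counted using Drop-seq tools after FASTX-Toolkit steps, and the submitters' processing notes name bcl2fastq 2.20.0.422. The authors also deposited Seurat cluster names and the percent of mitochondrial UMIs per cell. Kept cells had at least 2502 (dataset 1) and 2501 (dataset 2) genes. No doublet caller was run. The members and gene lists were chosen with earlier results of these data known.

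Counts were summed per pool and type or cluster, and all genes passing filterByExpr were fitted with TMM and glmQLFTest (edgeR 4.0.16, limma 3.58.1, R 4.3.3) without a pool term. The fits held 12 sums of 6 types (13894 genes, 6 residual degrees of freedom) and 40 sums of 20 clusters (15295, 20) in dataset 2, and 14 sums of 7 types (10229, 7) and 16 sums with chief cells added after seeing the data (10163, 8) in dataset 1. Type sums held 2165683 to 29539575 UMIs in dataset 2 and 483675 to 2362300 in dataset 1, and cluster sums 27776 to 12893877. Few UMIs limit precision in the small clusters. The scripts were checked on simulated counts. Per-cell shares were thinned with Python 3.11.15. With 2 pools per group, leaving 1 out leaves no residual degrees of freedom, so such values have no test.

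The named genes were all members, from each pathway list the 3 with the highest mean CPM in any dataset 2 cluster and the 3 called genes with the largest change in a comparison, and the 3 genes most correlated with each member among genes of at least 5 CPM in 1 cluster. A few others of the lists are named beside them, and 1 antagonist gene is not reported here. Types of 1 pool share mice, so the pool is a block that pairs them: deviations of types of the same pool from their means correlated at a median of 0.132 over 15 pairs of types in dataset 2 (0.0689 to 0.411) and 0.0245 over 21 pairs in dataset 1 (−0.0287 to 0.0533). Alternatives were RLE size factors, DESeq2 1.42.0, no filter, the pool as a block, no mitochondrial genes, no cells above the 95th percentile of UMIs, each pool left out, neck without cluster 12 and parietal without cluster 8.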

Additional observations from a re-analysis of the deposited data

Results flagged for a closer look

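For *Bmp7* and *Id3*, the pools of dataset 2 had the opposite sign to those of dataset 1 in parietal against isthmus or isthmus-like cells (log2 fold change ± SE), though most of these differences did not pass the test. *Bmp7* was at 0.16 ± 0.10 in dataset 2 (adjusted p = 0.147) and at −0.55 ± 0.45 in dataset 1 (adjusted p = 0.304). *Id3* was at −0.013 ± 0.15 in dataset 2 (adjusted p = 0.946), so close to 0 that its sign carries no direction, and at 0.48 ± 0.14 in dataset 1 (adjusted p = 5.05e-03). The difference between the datasets was not tested, and the *Id3* values depend on the scaling, as given above. They differ in tissue, dye and spike-in, and the isthmus cells of dataset 2 and isthmus-like cells of dataset 1 were named from separate clusterings.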

How the results depend on the processing

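No called difference of a member changed direction under an alternative that kept both pools. Of 152 log2 fold changes of members, 143 kept their side of the threshold under RLE size factors, 142 without a filter, 146 with the pool as a replicate block, 151 without mitochondrial genes and 145 without the cells above the 95th UMI percentile, as did 129 of 148 under DESeq2. Without 1 pool there is no test, and among called differences only *Bmp2* in cluster 14 turned, to −0.73 without pool K. Beside this 1, values moved by more than their SE in 32 of 96 dataset 2 differences without pool K and in 34 of 96 without T. In dataset 1 they did so in 20 and 18 of 56 differences without tube1 and tube2. Of 229 cluster levels, 136 moved by less than the spread between pools when averaged over cells, as did 58 of 130 shares of cells when thinned to 20000 UMIs, 49 when thinned to 5000 and 40 without thinning. The number of members called moved by over 1.5 times as follows. With no filter it was 2 in dataset 2 pre-pit against isthmus, 2 in mature pit against pre-pit, 5 in antrum against corpus pit cells, 5 among isthmus clusters and 5 in cluster 18. With the replicate block it was 2 in pre-pit against isthmus, 3 in mature pit against pre-pit and 6 among isthmus clusters, and beyond the calls named in the report the block changed no other call. With DESeq2 it was 0 in dataset 1 corpus mature pit against pre-pit, 3 in neck against isthmus-like, 1 in antrum against corpus pit cells and 4 in cluster 14, where RLE also gave 4. Without the cells of highest UMI totals it was 1 in dataset 1 corpus mature pit against pre-pit and 1 among isthmus clusters, and neck without cluster 12 gave 4. The share of all genes called under these settings is not given here, so these counts have no background share beside them. Over all genes DESeq2 called 863 in dataset 1 pre-pit against isthmus-like, 665 in mature pit against pre-pit, 1458 in neck against isthmus-like and 548 in antrum against corpus pit cells, against 2083, 1323, 2996 and 945 by edgeR. The antrum and corpus interaction called 11 genes by DESeq2, 97 with no filter, 12 with the block and 9 without the cells of highest totals, against 3. The cause was not tested. In every other comparison and setting with a test, the number of all genes called moved by no more than 1.5 times. Depth limits *Bmp4*, *Grem1* and the clusters of few cells.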

Other observations

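Several pathway genes outside the members were found mainly in cells other than the major epithelial types. *Bmp5*, a ligand of the BMP7 subgroup, was at 1105 ± 114 CPM (SD, 2 pools) in the stromal-like cluster 12 of dataset 1. In dataset 2 it was highest in cluster 15, at 29.3 ± 41.5 CPM, where pool K held the stromal markers. *Bmp6* was highest in the somatostatin-like cluster 16, at 17.3 ± 3.16 CPM. *Eng* and *Acvrl1*, which encode the endothelial co-receptor endoglin and the type I receptor ALK1, were at 1141 ± 165 and 447 ± 70.2 CPM in the endothelial-like cluster 19. The E protein gene *Tcf4* was also highest there, at 1005 CPM. By contrast, the ligand gene *Bmp3* was at 12.1 ± 2.80 CPM in chief cluster 10. It had 45 UMIs in chief against 3 in neck cells, a ratio of 66.7 per UMI total without TMM scaling (counting interval 21.4 to 335). The antagonist gene *Dand5* was at 14.7 ± 1.01 CPM in chief cluster 10 and 12.4 ± 1.40 CPM in parietal cluster 1. Before TMM scaling these were 53 of 6425681 and 183 of 21553150 UMIs, so their order depends on the scaling.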
